A study of Rattus norvegicus with 25 samples.

Results

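Rat molars that had been left dry for 60 min before replantation were compared between day 7 and day 3 after the tooth had been put back. The comparison holds 12 of the 25 libraries of the series, chosen by their titles: 6 of delayed replantation at day 7 (DR day 7) and 6 of delayed replantation at day 3 (DR day 3). In both groups the maxillary first molar of Sprague–Dawley rats, which carry no named genetic change, was extracted, kept dry for 60 min and replanted, so that the labels of the 2 groups differ in time only. For immediate replantation (IR), in which the tooth was dry for 5 min, there were also 6 libraries at day 7 and 6 at day 3, and a single library, NT, is labelled as the control. Every library is labelled tooth and periodontal ligament, taken at postnatal day 21, without saying whether that is the age at surgery or at collection. The labels do not say whether libraries of a group came from separate animals, so p-values measure the spread between these libraries only.

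Replantation returns a tooth whose periodontal ligament, the collagen-rich tissue that anchors root cementum to bone, has lost its blood supply, and drying kills ligament cells on the root. Neutrophils and macrophages are the first cells to enter such a wound, and cells of the adaptive immune system follow. Antigen-presenting cells show peptides to helper T cells on MHC class II molecules. In human and mouse, MHC class II genes are switched on by a regulatory factor X complex, of which RFX5 is a subunit, bound to the X box of their promoters. NF-Y binds the neighbouring Y box, and the coactivator CIITA docks on the assembled proteins.

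Rfx5 was the single gene that passed the test, and genes of the MHC class II pathway were among those that separated the groups, so the promoter stretch in which this pair of boxes lies is printed for the 3 rat MHC class II genes that hold it. Sequences are from RefSeq (build GRCr8), and 8 of 10 genes looked up had a promoter there. Capitals mark the X box core GCAAC and, 27 or 28 bases downstream, the Y box core ATTGG.
RT1-Ba (alpha chain, chr20:4576965-4577030, plus strand): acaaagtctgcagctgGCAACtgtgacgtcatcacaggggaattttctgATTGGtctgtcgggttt
RT1-Da (alpha chain, chr20:4515317-4515382, plus strand): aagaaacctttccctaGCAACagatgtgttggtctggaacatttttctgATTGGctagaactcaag
RT1-Db1 (beta chain, chr20:4560226-4560290, minus strand): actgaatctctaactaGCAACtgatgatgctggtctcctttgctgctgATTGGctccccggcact
On either strand, the 2 motifs at this spacing stood in 30 of 33469 rat promoter windows (0.0896%), GCAAC in 35.1% whatever else they hold, and ATTGG in 37.5%; the motifs do not overlap, and the spacing was chosen after reading these promoters. The windows of RT1-Bb, RT1-DMa, Cd74, Ctss and Rfx5 do not hold the pair at this spacing. A match is a string of letters and was not tested for binding.

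Libraries held 5.04 to 8.81 M counts at DR day 7 and 6.23 to 7.57 M at DR day 3 (two-sided exact permutation test, p = 0.883; the smallest p that 6 against 6 libraries allow is 0.00216). Counts come from QuantSeq, which reads the 3′ end of each transcript, and are given here as CPM, counts divided by a library size that was scaled by the trimmed mean of M values. DR day 3 replicates 1, 2 and 3 stood apart: on the first principal component, 49.4% of the variance, they lay between -120.5 and -98.7, while the DR day 7 libraries lay between 26 and 70.8 and DR day 3 replicates 4, 5 and 6 at 41.6, -35.6 and 28.2. In these 3 libraries genes of a lipid-secreting gland took 1.98% to 2.67% of counts, against 0.0257% to 0.691% in DR day 3 replicates 4 to 6 and 0.0183% to 0.556% at DR day 7. Their summed level of osteoblast genes was 4115 to 16067 CPM. That of DR day 3 replicates 4 to 6 was 39398 to 57318 CPM, and DR day 7 libraries had 62217 to 92492 CPM. Type I collagen, which ligament shares with bone, is in this sum. Col1a1 alone held 1590 to 25600 CPM at DR day 3 and 29100 to 46000 CPM at DR day 7. Lists are therefore also described without those 3 libraries below. The ligament genes Postn, Aspn, Scx and Tnmd were detected in every DR library, but unevenly. Postn was at 378 to 855 CPM at DR day 7, 20.3 to 759 CPM at DR day 3 and 2807 CPM in NT. At DR day 7 the lowest values of Aspn, Scx and Tnmd were 10.5, 3.52 and 5.09 CPM. At DR day 3 they were 3.23, 0.851 and 0.124 CPM. Dspp, the defining gene of dentin-forming odontoblasts, was at 0 in 2 DR day 7 and 3 DR day 3 libraries.

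Of 11492 genes tested, 1 passed an adjusted p under 0.05 (0.0087%): Rfx5, higher at day 7. In this fit of all 24 replanted libraries (edgeR quasi-likelihood test with Benjamini-Hochberg adjustment), 509 genes (4.43%) had an adjusted p under 0.10, 170 higher (1.48%) and 339 lower (2.95%). An unadjusted p under 0.05 was reached by 931 genes that were higher (8.1%) and 1658 that were lower (14.4%); with upper-quartile scaling these were 1224 and 1363. All 6 DR day 7 libraries lay above all 6 DR day 3 libraries for 222 genes (1.93%) and below them for 124 (1.08%). Genes other than Rfx5 therefore did not pass the test, and their values below are descriptions. The count of passing genes turned on the libraries fitted. It was 43 of 10810 genes (0.398%) when the 12 DR libraries were fitted alone, 27 higher (0.25%) and 16 lower (0.148%). It was 1420 (12.2%; 3.41% higher and 8.81% lower) without IR day 3 replicate 6, which is no library of this comparison but shares the estimate of spread, the scaling and the filter, and had 3.16% of its counts in lipid-gland genes, 369 without DR day 3 replicate 4, 76 without DR day 3 replicate 6 and 6 without DR day 3 replicate 5. It was 0 without DR day 3 replicates 1 to 3, with 561 genes (4.71%, 2.79% higher and 1.92% lower) at an unadjusted p under 0.05. Leaving out IR day 3 replicate 6 together with DR day 3 replicates 1 to 3 also gave 0, of 11894 genes. In that fit 1038 genes (8.73%) had an unadjusted p under 0.05.

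Rfx5 rose at day 7. Its level was 27.1, 28, 29.1, 22.6, 30 and 28.9 CPM in DR day 7 replicates 1 to 6, against 15, 12.3, 9.02, 14.3, 16.1 and 10.1 CPM in DR day 3 replicates 1 to 6. The lowest day 7 library lay above the highest day 3 library, and the log2 fold change was 1.11 (SE 0.18, adjusted p = 0.0378, edgeR). Without DR day 3 replicates 1 to 3 the log2 fold change was 1.07 and the gene no longer passed, and over 26 alternative settings it ran from 1.02 to 1.23 with 11 settings passing (adjusted p from 8.42e-06 to 0.649). In immediate replantation Rfx5 was at 20.8 to 29.5 CPM (median 23.9) at day 7 and 10.1 to 23.6 CPM (median 16.6) at day 3, a log2 fold change of 0.51; the difference between the time changes was 0.60 (unadjusted p = 0.0264, adjusted p = 1). The NT library held 31.8 CPM.

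Genes of the MHC class II pathway stood higher at day 7. Of 12 listed members 9 are in the files and 8 passed the low-count filter. Each of the 8 had an unadjusted p under 0.05 in the direction of day 7, against 8.1% of all genes. For 4 the groups did not overlap, against 1.93% of all genes. None of the 8 passed the adjusted threshold. All 8 did when IR day 3 replicate 6 was left out, against 3.41% of all genes that passed in the direction of day 7. No gene of any list did when DR day 3 replicates 1 to 3 were left out as well. Their median log2 fold change was 1.58, against 0.0016 over all genes tested. Cd74, the invariant chain that escorts class II molecules, ran from 586 to 1120 CPM (median 936) at DR day 7, against 98.9 to 364 CPM (median 298) at DR day 3 (log2 fold change 1.88, SE 0.43, adjusted p = 0.0788). RT1-Db1, a class II beta chain, ran from 430 to 850 CPM (median 712) at DR day 7, against 73.8 to 284 CPM (median 228) at DR day 3 (log2 fold change 1.75, adjusted p = 0.0788). For both genes DR day 3 replicates 2 and 3 were the lowest libraries, and the groups did not overlap. The alpha chain RT1-Ba and the coactivator Ciita completed the 4 genes without overlap and were named after their values were seen. RT1-Ba ran from 206 to 512 CPM (median 391) at DR day 7, against 34.2 to 195 CPM (median 142) at DR day 3, a log2 fold change of 1.66. Ciita ran from 5.76 to 11.6 CPM (median 8.65) at DR day 7, against 0.497 to 3.81 CPM (median 3.07) at DR day 3, a log2 fold change of 1.73. RT1-Da, RT1-DMa, RT1-DMb and Ctss, which encode an alpha chain, the peptide-loading helper chains and the protease that trims the invariant chain, had log2 fold changes of 1.47, 1.32, 1.51 and 1.29 with overlapping groups. RT1 genes are close copies of each other, so reads may have been shared among them. Without DR day 3 replicates 1 to 3 the median was 1.19 with 4 of 8 higher at an unadjusted p under 0.05, against 2.79% of all genes. In IR the median was 1.20. More cells of a type and more RNA per cell cannot be told apart in such bulk libraries.

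**Figure D1:**
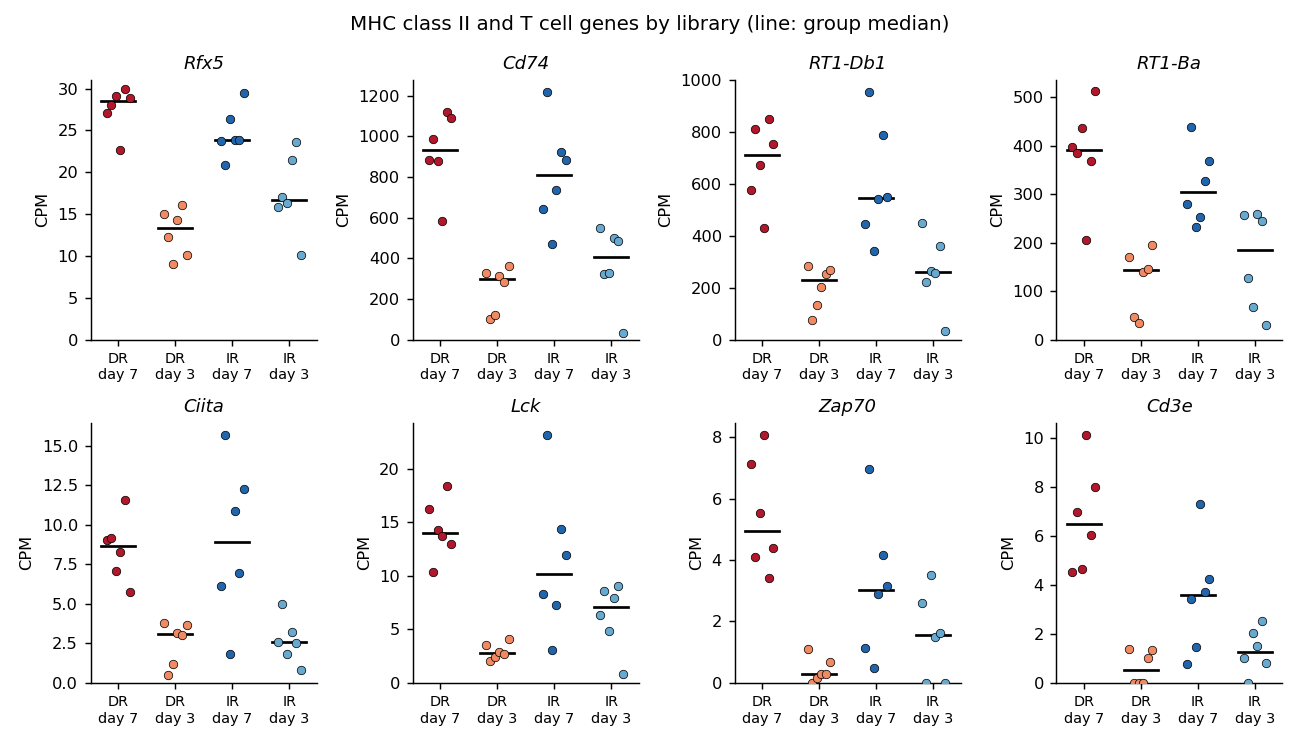
CPM of 8 genes in each replanted library (vertical axes, CPM from 0; 6 libraries per group; black lines are group medians). The DR day 7 libraries lie above the DR day 3 libraries for each gene shown, for Rfx5 between 22.6 and 30 CPM against 9.02 and 16.1 CPM. The IR groups overlap for each of them. The 8 genes were chosen by their DR values, so this contrast is no test of a difference between DR and IR. No gene passed the adjusted test of that difference.

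Genes of T cells stood higher at day 7. Of 22 listed T and NK cell genes 15 were tested. An unadjusted p under 0.05 in the direction of day 7 was reached by 12, against 8.1% of all genes. For 7 the groups did not overlap, against 1.93% of all genes. Among the 7 were Lck and, named after their values were seen, Zap70, Cd3e, Cd3d, Icos and Cd6. The median log2 fold change was 2.24. Lck, the kinase that starts T cell receptor signalling, ran from 10.4 to 18.4 CPM (median 14) at DR day 7, against 1.99 to 4.13 CPM (median 2.78) at DR day 3 (log2 fold change 2.29, SE 0.43, adjusted p = 0.059). No DR day 7 library was as low as any DR day 3 library. Zap70, which Lck activates, ran from 3.42 to 8.07 CPM (median 4.96) at DR day 7, against 0 to 1.09 CPM (median 0.292) at DR day 3, and Cd3e, a chain of the receptor complex, from 4.51 to 10.1 CPM (median 6.5) at DR day 7, against 0 to 1.36 CPM (median 0.505) at DR day 3, with 3 DR day 3 libraries at 0. The cytotoxic genes Cd8a and Prf1 had log2 fold changes of 1.92 and 2.22 with overlapping groups. Foxp3, which marks regulatory T cells, was at 8.68 to 20 CPM (median 14.7) at DR day 7 and 10.1 to 17.9 CPM (median 11.6) at DR day 3, and Nkg7, a granule gene of cytotoxic cells, had a log2 fold change of -0.28. Summed, the 21 T and NK genes in the files reached 146 to 224 CPM at DR day 7, against 19.4 to 96.1 CPM at DR day 3 and 78.0 CPM in NT. Without DR day 3 replicates 1 to 3 the median was 2.07. In that fit 9 of 15 were higher at an unadjusted p under 0.05, against 2.79% of all genes. Without IR day 3 replicate 6 alone 7 of 15 passed the adjusted threshold, all higher, against 3.41% of all genes. The median in IR was 1.39; of the tests of the difference, Lck (1.43, unadjusted p = 0.0234) and Zap70 (2.64, unadjusted p = 0.027) were under 0.05 and neither passed after adjustment.

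B and plasma cell genes followed, with more spread. Of 16 listed genes 11 were tested. An unadjusted p under 0.05 in the direction of day 7 was reached by 8, against 8.1% of all genes, and none had groups without overlap. The median log2 fold change was 2.47, with 2.81 when DR day 3 replicates 1 to 3 were left out and 0.96 in IR. Without IR day 3 replicate 6, 5 of 11 passed the adjusted threshold, all higher, against 3.41% of all genes. Cd79b, a chain of the B cell receptor complex, was at 25.3, 33.2, 4.43, 30.2, 40.6 and 34.4 CPM in DR day 7 replicates 1 to 6, against 10.3, 1.61, 1.19, 4.46, 1.01 and 3.14 CPM in DR day 3 replicates 1 to 6 (log2 fold change 2.94, adjusted p = 0.0867). Mzb1, a chaperone of antibody-secreting cells, was at 20.8, 56.9, 5.65, 24, 50.8 and 29.7 CPM in DR day 7 replicates 1 to 6, against 7.75, 2.11, 5.45, 6.54, 3.74 and 3.3 CPM in DR day 3 replicates 1 to 6 (log2 fold change 2.70, adjusted p = 0.0885). DR day 7 replicate 3 was the low library at day 7 for both genes, and DR day 3 replicate 1 was the high library at day 3. Xbp1 and Sdc1, which plasma cells share with secretory and epithelial cells, had log2 fold changes of 0.02 and 0.27.

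Chemokine and interferon response genes stood higher at day 7, by less without DR day 3 replicates 1 to 3. Cxcl13, a chemokine that attracts B cells, ran from 61.5 to 351 CPM (median 122) at DR day 7, against 1.12 to 41.8 CPM (median 26.4) at DR day 3, without overlap (log2 fold change 2.71, adjusted p = 0.0867). Ccl5, made by T cells, ran from 6.83 to 13.5 CPM (median 10.6) at DR day 7, against 2.01 to 4.77 CPM (median 2.96) at DR day 3, also without overlap (log2 fold change 1.63, adjusted p = 0.0867). These were the 2 chemokines of 24 tested whose groups did not overlap, against 1.93% of all genes. In this list 7 had an unadjusted p under 0.05, all higher, against 8.1% of all genes. The list median was 1.04, or 0.37 without DR day 3 replicates 1 to 3. Interferon response genes had a median of 1.11, with 11 of 25 tested higher at an unadjusted p under 0.05, against 8.1% of all genes. When those 3 libraries were left out the median was 0.59 with 1 gene higher, against 2.79% of all genes. In IR the medians were 1.17 for chemokines and 1.08 for interferon response genes. Psmb9, an interferon-induced proteasome subunit, ran from 68.2 to 159 CPM (median 89.2) at DR day 7, against 17.7 to 65.9 CPM (median 35.2) at DR day 3, and Tap1, the transporter that loads MHC class I, had a log2 fold change of 1.07 (adjusted p = 0.0971).

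Among the 17 neutrophil, 18 cytokine and 20 macrophage genes tested, Il6r was the 1 gene whose groups did not overlap. That share is near the 1.93% of all genes that were higher without overlap. At an unadjusted p under 0.05, 8.1% of all genes were higher and 14.4% lower. Without DR day 3 replicates 1 to 3 these shares were 2.79% and 1.92%. Of 17 neutrophil genes tested 1 had an unadjusted p under 0.05, Ncf1, a subunit of the NADPH oxidase (log2 fold change 1.96, adjusted p = 0.0926). S100a8, an abundant neutrophil protein, ran from 931 to 2220 CPM (median 1320) at DR day 7, against 26.9 to 4010 CPM (median 538) at DR day 3 (log2 fold change 0.05); DR day 3 replicates 1 to 3 held 26.9 to 96.9 CPM, and without them the log2 fold change was -0.89. Il1b ran from 269 to 1710 CPM (median 931) at DR day 7, against 4.22 to 1740 CPM (median 80.2) at DR day 3, and the same 3 libraries held 15.5 CPM or less. Il6 was at 0.626 to 12.7 CPM (median 7.17) at DR day 7 and 0.497 to 27.4 CPM (median 4.79) at DR day 3. For these 3 genes the range over the DR day 3 libraries enclosed that over the DR day 7 libraries. Of 18 cytokine genes tested, 2 had an unadjusted p under 0.05, Il6r and Tnf, and none without DR day 3 replicates 1 to 3, when the median was 0.19 against 0.96 with them. Il6r, a receptor chain for interleukin 6, ran from 6.01 to 12 CPM (median 6.35) at DR day 7, against 1.99 to 5.95 CPM (median 4.47) at DR day 3 (log2 fold change 0.93, adjusted p = 0.146), and Tnf had a log2 fold change of 2.33. Macrophage genes had a median of 0.998 (6 of 20 tested higher and 1 lower at an unadjusted p under 0.05). Without those 3 libraries the median was 0.23, with none higher and 1 lower. In IR the macrophage median was 1.37, with 13 of 20 higher at an unadjusted p under 0.05, against 7.82% of all genes. Apoe, a lipid carrier that macrophages secrete, ran from 3700 to 6060 CPM (median 4850) at DR day 7, against 950 to 5390 CPM (median 1820) at DR day 3 (adjusted p = 0.107). Cd163, the macrophage receptor for haemoglobin, was the 1 lower: 2.21 to 5.48 CPM (median 3.9) at DR day 7, against 5.34 to 28.9 CPM (median 7.33) at DR day 3 (log2 fold change -1.78, adjusted p = 0.0885). Its log2 fold change was -2.32 without DR day 3 replicates 1 to 3 and 0.10 in IR, and the difference between the time changes was -1.87 (unadjusted p = 0.0124).

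Of 14 osteoclast genes tested, none had an unadjusted p under 0.05, and the median was 0.42, or -0.22 without DR day 3 replicates 1 to 3. Acp5, the acid phosphatase of bone-resorbing cells, ran from 962 to 1530 CPM (median 1290) at DR day 7, against 19.7 to 1880 CPM (median 372) at DR day 3, and Ctsk, their collagen-degrading protease, from 1270 to 2650 CPM (median 2300) at DR day 7, against 24.5 to 3610 CPM (median 798) at DR day 3. DR day 3 replicate 4 was the highest of the 12 libraries for both, and DR day 3 replicates 1 to 3 were the lowest. Tnfrsf11b, the decoy receptor that blocks osteoclast formation, had a log2 fold change of -0.34; Snx10 and Ostm1, which act in osteoclast acid secretion, had -1.21 and 0.24.

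Bone-forming genes stood higher at day 7, by less when the 3 libraries that stood apart were left out. Of 17 osteoblast genes tested 9 had an unadjusted p under 0.05, all higher, against 8.1% of all genes. For 6 the groups did not overlap, against 1.93% of all genes, and the list median was 1.12. Smpd3, a sphingomyelinase needed for mineralization, ran from 42.1 to 88 CPM (median 54.9) at DR day 7, against 11.2 to 39.6 CPM (median 22.7) at DR day 3 (log2 fold change 1.37, SE 0.37, adjusted p = 0.0867). Bglap, osteocalcin, ran from 1270 to 2150 CPM (median 1760) at DR day 7, against 65.7 to 915 CPM (median 518) at DR day 3 (log2 fold change 1.82, adjusted p = 0.11). Both genes had every day 7 library above every day 3 library, including DR day 3 replicates 4 to 6. Col1a1, the main chain of bone and ligament collagen, ran from 29100 to 46000 CPM (median 40200) at DR day 7, against 1590 to 25600 CPM (median 12600) at DR day 3, and Col1a2 had a log2 fold change of 1.54. Runx2 and Ibsp, an osteoblast transcription factor and a bone matrix protein, had log2 fold changes of 0.66 and 0.88. Without DR day 3 replicates 1 to 3 these were 0.02 and 0.01. The list median was then 0.62, with 1 gene, Smpd3, higher at an unadjusted p under 0.05, against 2.79% of all genes. In IR the median was 0.50. Without IR day 3 replicate 6, 7 of 17 passed the adjusted threshold, all higher, against 3.41% of all genes. Phex, a membrane endopeptidase-like protein of osteocytes and odontoblasts, ran from 88.5 to 184 CPM (median 131) at DR day 7, against 12.8 to 66.6 CPM (median 43.5) at DR day 3, without overlap (adjusted p = 0.103). Of the 9 osteocyte genes tested, whose median was 0.77, or 0.12 without DR day 3 replicates 1 to 3, Hyou1, an endoplasmic reticulum chaperone, was the 1 lower (log2 fold change -0.36). Of 16 odontoblast and pulp genes tested, 3 were higher and 1 lower at an unadjusted p under 0.05, with a median of 0.61. Over all genes 8.1% were higher and 14.4% lower. Without those 3 libraries 2 of the 16 were higher and 2 lower, against 2.79% and 1.92% of all genes. The list median was then 0.04.

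Ligament and matrix genes differed less once the 3 libraries were left out. Of 18 periodontal ligament genes tested 4 were higher and 1 lower at an unadjusted p under 0.05, against 8.1% and 14.4% of all genes. The list median was 0.65, or 0.01 without DR day 3 replicates 1 to 3. Tnmd, a tendon and ligament membrane protein, ran from 5.09 to 16.7 CPM (median 11.6) at DR day 7, against 0.124 to 7.93 CPM (median 1.57) at DR day 3 (log2 fold change 2.27, adjusted p = 0.0885), overlapping through DR day 7 replicate 3. Ogn and Postn, both matrix proteins, had log2 fold changes of 0.79 and 0.89. Fibrillar collagens had a median of 0.95, or 0.22 without the 3 libraries. Elastic fibre genes had 8 higher and 2 lower of 20 tested at an unadjusted p under 0.05, against 8.1% and 14.4% of all genes. Their median was 0.58. Without the 3 libraries 4 were higher and none lower, against 2.79% and 1.92% of all genes, with a median of 0.15. Loxl3, an enzyme that crosslinks elastin and collagen, ran from 16.4 to 21.9 CPM (median 18.6) at DR day 7, against 9.7 to 15.5 CPM (median 12.2) at DR day 3, without overlap (log2 fold change 0.64, adjusted p = 0.0802). Eln, elastin, ran from 46.2 to 111 CPM (median 76.5) at DR day 7, against 15.9 to 52.9 CPM (median 25.2) at DR day 3, and Fbln1, a matrix glycoprotein, had a log2 fold change of 1.08 (adjusted p = 0.0844). The list median of 25 BMP and TGF-beta genes tested was 0.66. Of them 4 were higher at an unadjusted p under 0.05, led by Bmp4 (0.87) and its inhibitor Nog (1.16), against 8.1% of all genes. Without the 3 libraries none was, the median was 0.11, and Bmp4 and Nog had log2 fold changes of 0.52 and 0.71.

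**Figure D2:**
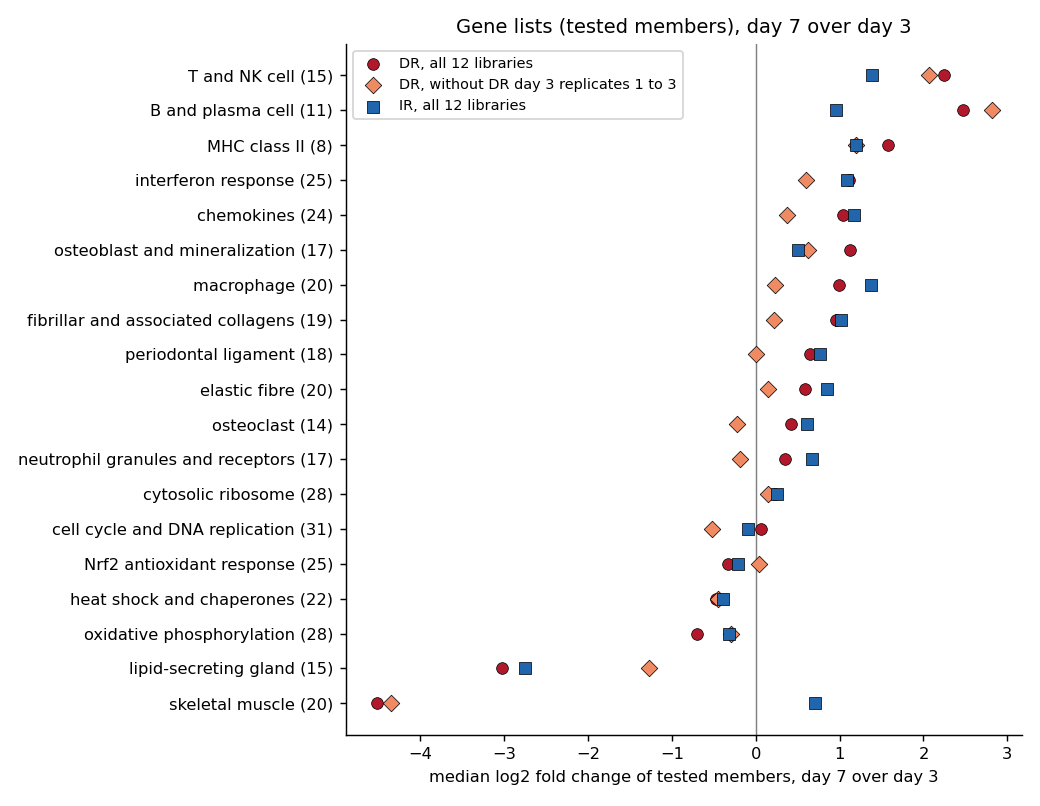
Median log2 fold change of day 7 over day 3 (horizontal axis) over the tested members of 19 gene lists (number tested in brackets) for the 12 DR libraries, for DR without DR day 3 replicates 1 to 3, and for IR. T and NK cell, B and plasma cell and MHC class II medians are 1.19 or more in both DR versions, osteoclast and neutrophil medians are 0.42 and 0.35 with all libraries and -0.22 and -0.19 without the 3, and the skeletal muscle median is -4.52 in DR and 0.71 in IR.

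Genes of mitochondrial respiration stood lower at day 7. Of 28 oxidative phosphorylation genes tested, 24 had an unadjusted p under 0.05, all lower, against 14.4% of all genes. For 6 the groups did not overlap, against 1.08% of all genes. The median log2 fold change was -0.70. Atp5a1, a subunit of the ATP synthase, was at 90.1, 108, 93.3, 106, 101 and 109 CPM in DR day 7 replicates 1 to 6, against 240, 189, 217, 158, 132 and 150 CPM in DR day 3 replicates 1 to 6 (log2 fold change -0.84, SE 0.16, adjusted p = 0.059). Cycs, cytochrome c, ran from 57.6 to 77.3 CPM (median 63.9) at DR day 7, against 85.3 to 125 CPM (median 111) at DR day 3 (log2 fold change -0.70, adjusted p = 0.0802). The other 4 without overlap, Atp5c1, Sdhc, Cyc1 and Sdhb, encode parts of the ATP synthase, complex II and complex III, and were named after their values were seen. Without DR day 3 replicates 1 to 3 the median was -0.29. In that fit 3 genes, Atp5a1, Cycs and Cox5a, were lower at an unadjusted p under 0.05, against 1.92% of all genes. In IR the median was -0.32. Without IR day 3 replicate 6, 21 of 28 passed the adjusted threshold, all lower, against 8.81% of all genes.

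Chaperone genes were lower by a similar amount with and without the 3 libraries. Of 22 tested, 10 had an unadjusted p under 0.05, all lower, against 14.4% of all genes. For 7 the groups did not overlap, against 1.08% of all genes. The median was -0.48, -0.45 without DR day 3 replicates 1 to 3 and -0.40 in IR. Without IR day 3 replicate 6, 10 of 22 passed the adjusted threshold, all lower, against 8.81% of all genes. Hspa8, the constitutive cytosolic Hsp70, ran from 67.7 to 90 CPM (median 81.1) at DR day 7, against 95.2 to 164 CPM (median 116) at DR day 3 (log2 fold change -0.62, SE 0.15, adjusted p = 0.0802). Hspe1, the mitochondrial co-chaperonin, ran from 10.9 to 18.2 CPM (median 13.1) at DR day 7, against 24.6 to 72.5 CPM (median 32.9) at DR day 3, and Hspd1, its partner, had a log2 fold change of -1.14. Hspa5, the endoplasmic reticulum Hsp70, ran from 645 to 1030 CPM (median 876) at DR day 7, against 1070 to 1610 CPM (median 1360) at DR day 3. For all 4 genes every day 7 library lay below every day 3 library. Hsph1, a cytosolic nucleotide-exchange factor, had a log2 fold change of -0.74 (adjusted p = 0.0788) with 1 day 3 library inside the day 7 range. The stress-induced Hspa1a and Hspa1b, close copies among which reads may have been shared, had 0.10 and 0.01. Cryab, also a muscle protein, had -2.99 and -0.01 in IR.

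**Figure D3:**
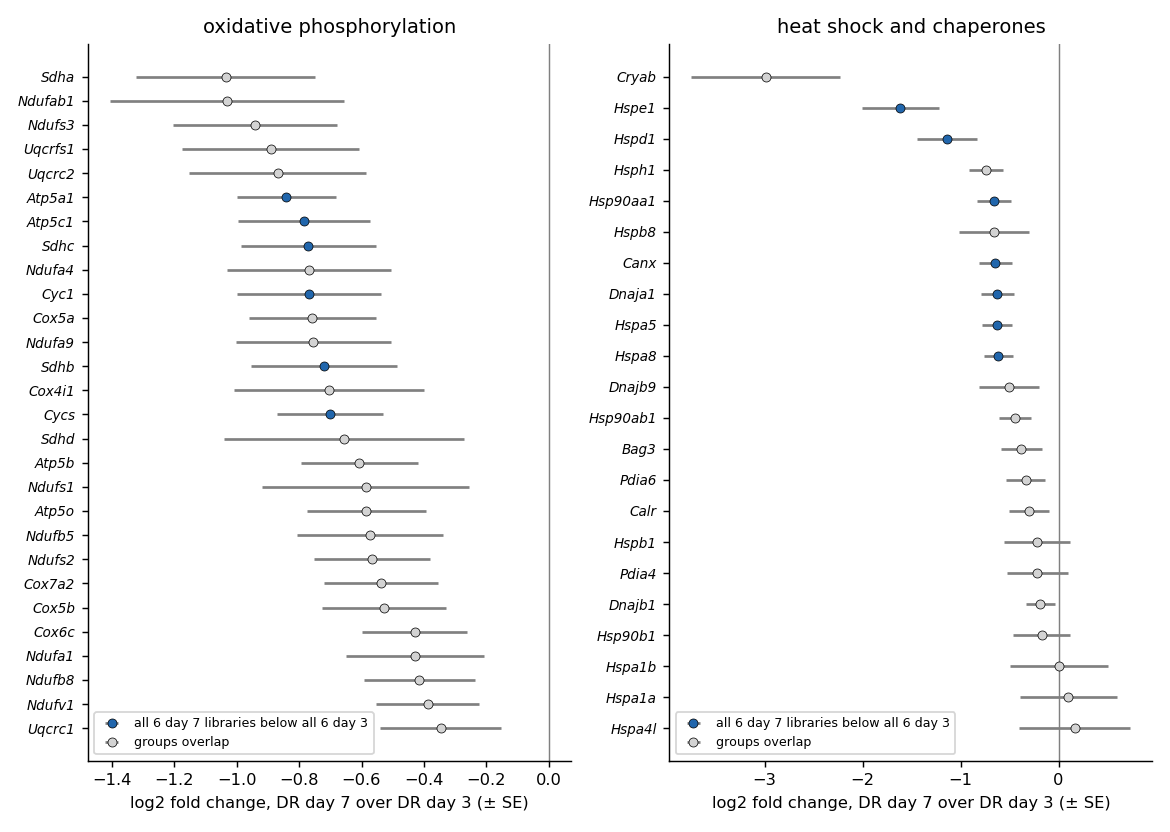
Log2 fold change of DR day 7 over DR day 3 with its standard error (horizontal axes) for 28 oxidative phosphorylation genes and 22 chaperone genes tested; blue points are genes with all 6 day 7 libraries below all 6 day 3 libraries. The 28 respiration genes are all below 0, and 6 of them and 7 chaperone genes are blue.

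At an unadjusted p under 0.05, 1 of 25 Nrf2 antioxidant response genes tested was higher and 8 were lower. Over all genes 8.1% were higher and 14.4% lower. The Nrf2 list median was -0.33, but 0.04 without DR day 3 replicates 1 to 3. Gstp1, a glutathione transferase, was the 1 higher (log2 fold change 0.46, adjusted p = 0.102). Each of 28 cytosolic ribosome genes had a positive log2 fold change, with a median of 0.23. Of these, 9 had an unadjusted p under 0.05, led by Rps19 (0.49) and Rps18 (0.45), against 8.1% of all genes. The ribosome median was 0.14 without DR day 3 replicates 1 to 3, where 26 were positive and 2 negative, and none had an unadjusted p under 0.05. Of 31 cell cycle genes tested, 4 were lower at an unadjusted p under 0.05, a share below the 14.4% of all genes. These were Tyms, Cdc20, Pcna and Aurka, and none was higher. Tyms, which makes thymidylate for DNA, ran from 0.828 to 6.71 CPM (median 2.8) at DR day 7, against 6.69 to 19.9 CPM (median 10.1) at DR day 3 (log2 fold change -1.84). Mki67, a proliferation marker, was at 23.9 to 53.6 CPM (median 47) at DR day 7 and 12.1 to 94 CPM (median 21.6) at DR day 3. The list median was 0.06, and -0.52 without the 3 libraries.

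Markers of other tissues differed between the days and between libraries of a day. Skeletal muscle genes summed to 58.5 to 470 CPM at DR day 7, against 88.4 to 12067 CPM at DR day 3, where replicates 1 to 5 held at least 1807 CPM and replicate 6 held 88.4 CPM, and NT held 1313 CPM. All 20 tested had an unadjusted p under 0.05 in the lower direction, with a median log2 fold change of -4.52, and for none of the 20 were the groups without overlap. Without DR day 3 replicates 1 to 3 the median was -4.35 with 19 lower at an unadjusted p under 0.05, against 1.92% of all genes. Without IR day 3 replicate 6 all 20 passed the adjusted threshold, all lower, against 8.81% of all genes. Atp2a1, the calcium pump of fast muscle, was at 15.6, 30.4, 10.9, 15.9, 10.5 and 11.3 CPM in DR day 7 replicates 1 to 6, against 778, 153, 159, 77, 522 and 15.7 CPM in DR day 3 replicates 1 to 6 (log2 fold change -4.17, adjusted p = 0.0788). Pvalb, a calcium buffer of fast muscle, had a log2 fold change of -4.82 (adjusted p = 0.081). In IR the median was 0.71, and 19 of 20 had an unadjusted p under 0.05 for the difference between the time changes, none after adjustment; for Atp2a1 that difference was -4.73 (unadjusted p = 0.000828). Of 15 lipid-gland genes tested, 9 were lower and 1 higher at an unadjusted p under 0.05, against 14.4% and 8.1% of all genes. The list median was -3.02. When DR day 3 replicates 1 to 3 were left out, none was lower and 1 was higher, with a median of -1.27. In IR the list median was -2.75, with 10 lower and 1 higher, against 12.5% and 7.82% of all genes. IR day 3 replicate 6 held 37140 CPM of lipid-gland genes, and no other IR library held more than 585 CPM. Mgst1, a detoxifying enzyme, ran from 55.3 to 331 CPM (median 87) at DR day 7, where replicate 5 was the high library, against 120 to 2390 CPM (median 800) at DR day 3 (log2 fold change -3.02, and -1.47 without DR day 3 replicates 1 to 3). Apoc1, a lipoprotein component that macrophages also make, was the 1 higher, and ran from 11.7 to 28.2 CPM (median 16.2) at DR day 7, against 0.297 to 5.62 CPM (median 4.05) at DR day 3, a log2 fold change of 2.42. Of 20 gingival epithelium genes tested, 3 were higher and 1 lower at an unadjusted p under 0.05 (2 and none without those 3 libraries). Over all genes 8.1% were higher and 14.4% lower (2.79% and 1.92% without those 3 libraries). The list median was 0.59, with 12 positive and 8 negative log2 fold changes. Without overlap, 4 keratins of these 20 genes stood higher, against 1.93% of all genes: Krt76, Krt10, Krt1 and Krt16. Other epithelial genes had lower medians at DR day 7 than at DR day 3: Epcam 85 and 329 CPM, Krt8 47.5 and 116 CPM, Krt18 29.1 and 46.7 CPM. Krt76, a keratin of oral masticatory epithelium, ran from 9.26 to 36.6 CPM (median 13.9) at DR day 7, against 0.681 to 2.36 CPM (median 1.61) at DR day 3 (log2 fold change 3.53, adjusted p = 0.0867; 0.27 in IR). Krt10, a keratin of differentiating cells, had a log2 fold change of 2.94. The part that other tissues in the sample play in the results above was not tested beyond a fit with 3 tissue scores as covariates. The scores were of lipid-gland, skeletal muscle and nasal gland genes, and no score of gingival epithelium was fitted. In that fit 9 genes passed, 8 higher and 1 lower.

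**Figure D4:**
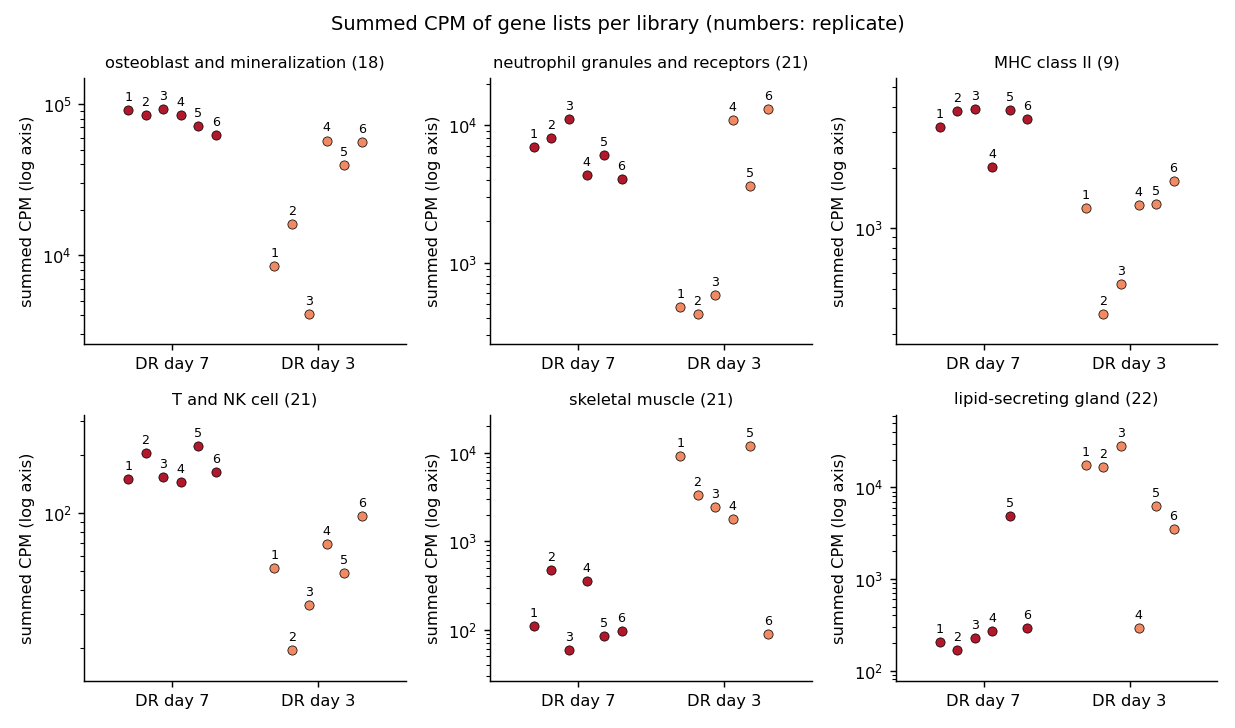
Summed CPM of 6 gene lists in each DR library (vertical axes logarithmic; numbers beside points are replicates; number of list genes in the files in brackets). T and NK cell and MHC class II sums at DR day 7 lie above all DR day 3 libraries. DR day 3 replicates 1 to 3 are low for osteoblast and neutrophil genes and high for lipid-gland genes. DR day 3 replicate 6 is low for muscle genes. The osteoblast sum includes type I collagen, which ligament shares with bone.

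The day 7 minus day 3 difference was also set against that in immediate replantation, which shares no library with it. At an unadjusted p under 0.05, 2589 genes (22.5%) differed in DR and 2340 in IR (20.4%; 7.82% higher and 12.5% lower). In IR 16 genes passed the adjusted threshold (0.139%; 0.104% higher and 0.0348% lower). Genes at an unadjusted p under 0.05 in both and in the same direction numbered 1127, 43.5% of the DR genes and 48.2% of the IR genes, and 4 were in opposite directions. No gene passed the test of the difference between the time changes (edgeR, adjusted p under 0.05); 346 had an unadjusted p under 0.05 (3.01%), 178 with the larger value in DR (1.55%) and 168 with the smaller (1.46%), and DESeq2 called 11. Ada, adenosine deaminase, was at 10.6 to 53 CPM (median 23.6) at DR day 7 and 5.96 to 80.7 CPM (median 40) at DR day 3, a log2 fold change of -0.61, against 4.28 in IR (difference -4.89, unadjusted p = 5.99e-05, adjusted p = 0.689).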

How the data were processed

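Per the labels, 500 ng of Trizol-extracted total RNA per library went into Lexogen QuantSeq 3′ libraries. The deposited values are whole-number counts of reads per gene symbol, not normalized by the authors; Bowtie2, edgeR, mm10 and rn6 are named, without versions or roles, in the submitters' processing notes. Each file has 17048 entries and 16881 distinct symbols; for the 149 repeated symbols the entry with the highest total was used.

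Counts were fitted with edgeR 4.0.16 in R 4.3.3 (filterByExpr, trimmed mean of M values, robust quasi-likelihood test, Benjamini-Hochberg adjustment) over the 24 replanted libraries, with 4 group means and 20 residual degrees of freedom. The contrasts were DR day 7 minus DR day 3, IR day 7 minus IR day 3, and their difference. Standard errors are the log2 fold change divided by the square root of F. CPM are counts relative to the scaled library size. Steps were tested on simulated data. Alternatives used DESeq2 1.42.0, limma 3.58.1 and the settings given in the closing section; those on the 0.10 threshold, on overlap and on list medians were added after seeing the data.

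Members and lists were chosen with earlier results of these data known. The rule for named genes took the 14 highest and 14 lowest passing genes (mean log2 CPM at least 3), at most 6 passing members of each described list or else the 2 of smallest p, and a fixed set of 12; all other genes named were chosen after their values were seen. Some genes that the rule takes are not reported here. No pair of libraries agreed within sampling noise. Precision covers counting and the spread between libraries.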

Additional observations from a re-analysis of the deposited data

Results flagged for a closer look

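Over 55 named genes and 3 library measures (total counts, genes detected, ribosomal RNA share) in both DR groups, 6 of 116 sets of 6 libraries held a library far from the other 5, its gap to the nearest being a large share of the whole range (0.784 for the clearest, Cd79b); chance alone marks about 1 in 20 sets. Values are log2 CPM. DR day 7 replicate 4 was low for Rfx5 at 4.51 (others 4.77 to 4.92) and for Cd74 at 9.2 (others 9.78 to 10.12). DR day 7 replicate 3 was low for Cd79b at 2.24 (others 4.68 to 5.35), and DR day 7 replicate 5 was high for Mgst1 at 8.37 (others 5.8 to 6.6). DR day 3 replicate 6 was low for Pvalb at -0.34 (others 5.13 to 7.92), and DR day 3 replicate 3 was low for Krt10 at -1.11 (others 1.71 to 3.34).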

How the results depend on the processing

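The count of genes passing an adjusted p under 0.05 depended on the setting. It was 1 with the settings of the report, with limma-voom and with repeated symbols summed. It was 0 with RLE scaling, with a filter of 10 counts in total and with ribosomal RNA entries left out. It was 0 with the replicate block, and with that block on the 12 DR libraries. Without DR day 3 replicates 1 to 3 it was 0, whether or not IR day 3 replicate 6 was kept. It was 9 with 3 tissue covariates, 20 with upper-quartile scaling, 43 on the 12 DR libraries, 509 at an adjusted p under 0.10, 1069 with DESeq2, 1420 without IR day 3 replicate 6 and 3291 with limma-voom and sample quality weights. Leaving out each DR library in turn gave 0 to 369. The test of the difference from IR gave 0, but 11 with DESeq2 and 522 with quality weights. Genes at an unadjusted p under 0.05 numbered 2589, but 4687 with quality weights, 1299 with the covariates, 561 without DR day 3 replicates 1 to 3, and 1713 to 3283 with 1 library left out. Genes without overlap numbered 346, 610 without those 3 libraries and 360 to 814 with 1 library left out. Fewer libraries make a lack of overlap easier to reach, so these counts cannot be compared directly. The labels do not say whether replicate numbers pair the groups. Libraries with the same number in their titles had correlations of their deviations from group means between -0.494 and -0.06. These correlations cannot exclude a pairing, and pairing under another numbering was not tested. Of 1430 gene values under alternatives, 1235 kept direction and side of the threshold, 15 no longer passed, 151 newly passed and 29 changed sign, in 10 of 55 genes. With the covariates the log2 fold change was -0.0899 for Ostm1, -0.28 for Acp5, -0.73 for Ctsk, -0.46 for Postn, -0.45 for Il1b, -1.76 for S100a8, -1.52 for Mki67 and 0.24 for Ada. Without DR day 3 replicates 1 to 3 it was -0.0013 for Ostm1, -0.27 for Ctsk, -0.89 for S100a8 and -0.56 for Mki67. With the replicate block it was -0.048 for S100a8 and -0.0164 for Mki67, and on the 12 DR libraries with the block 0.69 for Il6. With limma-voom it was 0.037 for Tnfrsf11b and 0.27 for Il6, and with quality weights 0.28 and 1.01. With 1 library left out it ran from -0.94 to 0.074 for Il6, from -0.21 to 0.72 for S100a8 and from -0.068 to 0.61 for Mki67. The cause was not tested.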

Other observations

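When the 12 DR libraries were fitted alone (edgeR, 10810 genes tested), 43 genes passed an adjusted p under 0.05 (0.398%), 27 higher and 16 lower at day 7. Except Atp2a1, the genes below were named after their values were seen. Further lymphocyte genes were among the higher. Il2rb, a receptor chain for interleukin 2 and interleukin 15, ran from 4.38 to 14.4 CPM (median 10.1) at DR day 7, against 0.34 to 2.31 CPM (median 1.24) at DR day 3 (log2 fold change 2.89 in the 12-library fit, adjusted p = 0.0455). Ptprcap, which binds the phosphatase CD45, ran from 35.3 to 123 CPM (median 77.3) at DR day 7, against 5.22 to 30.5 CPM (median 11.4) at DR day 3 (2.55). Gzmm, a granule protease of NK cells, ran from 7.12 to 14.1 CPM (median 8.08) at DR day 7, against 0.621 to 4.35 CPM (median 2.3) at DR day 3 (1.97). Ptpn6, a phosphatase of blood cells, had a log2 fold change of 0.83. In the fit of 24 libraries these genes had adjusted p of 0.059, 0.0788, 0.111 and 0.0788.

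Among the lower genes were co-chaperones and mitochondrial genes outside the lists. Stip1, which links Hsp70 and Hsp90, ran from 38.3 to 48.4 CPM (median 43.1) at DR day 7, against 59.6 to 89.4 CPM (median 76.8) at DR day 3 (log2 fold change -0.80 in the 12-library fit). St13, an Hsp70-interacting protein, ran from 63.6 to 84.8 CPM (median 72.3) at DR day 7, against 106 to 271 CPM (median 158) at DR day 3 (-1.26). Timm21, a subunit of the mitochondrial import machinery, ran from 10 to 14.9 CPM (median 12.8) at DR day 7, against 18.4 to 37.3 CPM (median 29.4) at DR day 3 (-1.19), and Mthfd2, a mitochondrial folate enzyme, had -0.91. The muscle genes Trdn, Tnnt3 and Atp2a1 were also among the 16, at -4.33, -4.03 and -4.19.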
